A study of Mus musculus with 8 samples.

Results

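Bone marrow of mice that had received Gli1 knockout (Gli1-/-) marrow was compared with bone marrow of mice that had received wild-type marrow, where the donor cells of both groups had been transduced with a retrovirus for unmutated JAK2 (JAK2WT). The comparison was defined by the sample titles and holds 11986 of the 22078 cells of the series that passed the filters: 7987 from the wild-type library and 3999 from the Gli1 knockout library. A cell passed with at least 500 detected genes, at least 1000 unique molecular identifiers (UMIs, each counting 1 captured transcript) and under 10% of its UMIs from mitochondrial genes. Donors were 8 weeks old, and their marrow was taken 48 hours before transplantation. Recipients were female B6.SJL mice, aged 8 to 10 weeks and irradiated with 10.5 Gy, and their marrow was collected at day 112. In each condition, marrow of 3 recipients was depleted of CD11b, GR1, TER119, B220 and CD3 positive cells, pooled, and sorted as viable lineage-negative cells with and without the GFP of the vector, before droplet single-cell RNA sequencing. The labels do not give the donors' strain, nor the proportion in which the GFP-positive and GFP-negative sorts were loaded. The series was designed around the role of haematopoietic Gli1 in myelofibrosis driven by mutant JAK2 (JAK2V617F), and here both libraries carry the control virus.

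GLI1 is a zinc finger transcription factor at the end of the hedgehog pathway. Hedgehog ligands (SHH, IHH, DHH) bind the receptor PTCH1, which then releases SMO, and SMO relieves the block that SUFU places on the GLI factors. Gli1 is itself a target of the pathway and is used in marrow to mark perivascular mesenchymal stromal cells, while JAK2 transmits signals from the erythropoietin, thrombopoietin and other cytokine receptors.

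Each genotype is 1 library of pooled mice, so no difference below has a replicate check and no test was made. Intervals are 95% intervals of counting error only, and a difference outside them is a difference between these 2 libraries. The wild-type library had 72458173 UMIs in 12376 cell barcodes and the knockout library 84063880 in 7155. Passing cells had a median of 4187 UMIs and 1663 genes in the wild type, against 17277 UMIs and 3696 genes in the knockout, and the libraries shared 5 cell barcodes. Clusters 6 and 7 were left unnamed and are called low-UMI clusters below for the cells that fill them: cluster 6 held 1825 wild-type cells with a median of 1804 UMIs and 24 knockout cells with 6951.5, and cluster 7 held 68 and 722 cells with medians of 1135.5 and 1388. Levels are given as CPM, the count of a gene scaled to a fixed total of UMIs per library or class, which corrects for total depth.

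The libraries also differed in the sex of their cells. Y-linked genes gave 1 UMI in the wild-type library and 9667 in the knockout library, and Xist was detected in 90.6% of wild-type and 3.10% of knockout cells. A UMI of a Y-linked gene was found in 69.7% of knockout cells, which marks them as not from the female recipients, whereas wild-type donor and recipient cells could not be told apart by these genes. Genes on the sex chromosomes were left out of all comparisons below. The sex difference and the genotype cannot be told apart for autosomal genes.

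Gli1 itself gave 0 UMIs in the wild-type library and 5 in the knockout library, all 5 in mesenchymal stromal-like cells. In the knockout library 63 of the 65 stromal-like cells had an Xist UMI, and 3 had a UMI of a Y-linked gene. Stromal-like cells numbered 37 in the wild type. In the haematopoietic classes it was undetected in both genotypes, with upper bounds of 0.456 CPM in the wild type and 0.351 CPM in the knockout (weighted over 6 classes, as explained below), so its deletion could not be checked from its transcript.

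GFP, which marks transduced cells, was detected in 45 wild-type cells (0.563%, exact interval 0.411% to 0.753%) and 7 knockout cells (0.175%, 0.0704% to 0.360%). The share in the knockout was 0.311 times that in the wild type (interval 0.140 to 0.688), although the knockout cells were sequenced more deeply. After each cell was thinned to 1000 UMIs, 10 wild-type cells and 1 knockout cell kept a GFP UMI. GFP was found in 0 stromal-like cells of either library. Cells without a GFP UMI include transduced cells whose GFP was not captured, so the cells were not divided by it.

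Over the 6 weighted classes, which hold no stromal-like cells, the hedgehog pathway was barely expressed in either genotype. Of 22 listed genes, 4 reached 10 CPM. After 10 CPM was added to each level, the scale of every log2 ratio here, 0 of these differed by 1.5-fold. The receptor gene Ptch1 was at 13.2 CPM in the wild type and 8.76 CPM in the knockout, a log2 ratio of -0.31 with the 10 CPM added. Smo, the signal transducer, was at 13.5 and 17.4 CPM (log2 ratio 0.22). The ubiquitin ligase adaptor Spop, which targets GLI proteins, was the most abundant member at 94.1 and 117 CPM (0.29), and Btrc, of the ligase that processes them, was at 11.3 and 13 CPM (0.11). Gli2, Gli3, Hhip, Boc, Gas1 and the ligand genes were each below 1 CPM in these classes of both libraries, and Sufu was at 8.21 and 6.11 CPM. In the single classes named below, innate lymphoid-like cells had 2 of 6 members higher and 2 lower, beside 11.1% and 10.5% of all genes. T cell-like cells had 2 of 5 lower (beside 19.5%), and mast cell and basophil-like cells 2 of 5 higher (beside 8.31%). Plasmacytoid-like cells had 1 of 5 higher and 1 lower (3.46% and 5.7%). NK-like cells and cluster 2 each had 1 of 4 lower (13.6% and 2.72%), and the other classes read singly had 0. The GLI binding motif GACCACCCA, searched on both strands of RefSeq promoter windows of 300 bases (GRCm38.p6), was present in 83 of 32851 windows. Counted by gene with a window, it was present in 14 of 6131 tested genes (0.228%). It was in 0 of 51 genes called higher, 0 of 83 called lower and 0 of 17 of the hedgehog list. At so low a rate these counts of 0 cannot tell the groups apart.

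The makeup of the 2 libraries differed. The clusters of all 4 libraries were given names from marker genes, and a name means resemblance only. Stem and multipotent progenitor-like cells (HSC/MPP-like, with Cd34, Adgrg1 and Meis1) were 5.01% of wild-type cells (400 cells) and 19.6% of knockout cells (782 cells), a ratio of 3.90 (interval 3.48 to 4.38). Granulocyte-monocyte progenitor and promyelocyte-like cells (GMP-like, with Elane and Mpo) were 6.17% and 14.3%, a ratio of 2.31 (2.06 to 2.59). Plasma cell-like cells were 3.89% and 10.0% (ratio 2.57), and innate lymphoid-like cells, with Gata3 and Il7r, were 2.39% and 3.53% (ratio 1.47, 1.19 to 1.83). The last ratio was 2.73 when 1000 genes, 2500 UMIs and under 5% mitochondrial UMIs were required of a cell, and 1.16 with the 2 libraries clustered alone. Immature blood cells and plasma cells thus made up more of the knockout library.

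Lymphocytes made up more of the wild-type library. T cell-like cells were 17.2% of wild-type cells and 1.45% of knockout cells, a ratio of 0.0844 (0.0651 to 0.109) that was 0.0167 when the 2 libraries were clustered alone, and B lineage-like cells were 10.1% and 0.175%, a ratio of 0.0173 (0.00825 to 0.0365). T cells and B cells had been removed by the depletion for CD3 and B220, so what remained of them also measures that step, whose part in these shares was not tested. Neutrophil-like cells, depleted through CD11b and GR1, were 2.10% and 0.825% (ratio 0.392), and macrophage-like cells were 0.864% and 0.5% (ratio 0.579).

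Shares depend on what else is in a library. With low-UMI clusters and all lymphoid, plasmacytoid and plasma cell-like cells left out of the total, the ratio for HSC/MPP-like cells was 2.24, that for GMP-like cells 1.33 that for neutrophil-like cells 0.225 and that for macrophage-like cells 0.333. Monocyte-like cells were 5.78% and 8.70% of all passing cells (ratio 1.5, 1.32 to 1.72) but had a ratio of 0.864 with those clusters left out and 0.504 when the 2 libraries were clustered alone, so their direction changed with the total and the clustering. Cluster 3, led by the antigen presentation genes H2-Aa, H2-Eb1 and H2-Ab1 and left unnamed, was 7.90% and 3.83% (ratio 0.484) and had a ratio of 0.278 with those clusters left out.

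For 4 classes the marker genes themselves differed between the libraries, and their shares are given here as values without a comparison. Their ratios are listed only under the processing alternatives, as values. Plasmacytoid dendritic-like cells were 7.17% and 3.35%, with 8 of 8 markers at least 1.5-fold lower in the knockout. Of all genes in that class, 5.7% were lower. Natural killer-like (NK-like) cells were 0.789% and 2.33%, with 6 of 9 markers lower (beside 13.6% of all genes). Erythroid-like cells were 1.00% and 1.28%, with 5 of 10 lower (beside 5.47%). Mast cell and basophil-like cells were 1.43% and 1.80%, with 4 of 9 lower (beside 5.1%). In the classes that were compared, 2 of 10 HSC/MPP markers (beside 0.93% of all genes) and 0 of 6 GMP markers (1.46%) were lower. Also lower were 3 of 10 monocyte markers (1.46%), 2 of 8 innate lymphoid markers (10.5%) and 1 of 9 plasma cell markers (9.74%). Of 11 T cell markers, 2 were lower (19.5%) and 1 higher (16.7%). B lineage-like, neutrophil-like and macrophage-like cells had under 50 knockout cells each, and their markers were not counted.

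**Figure D1:**
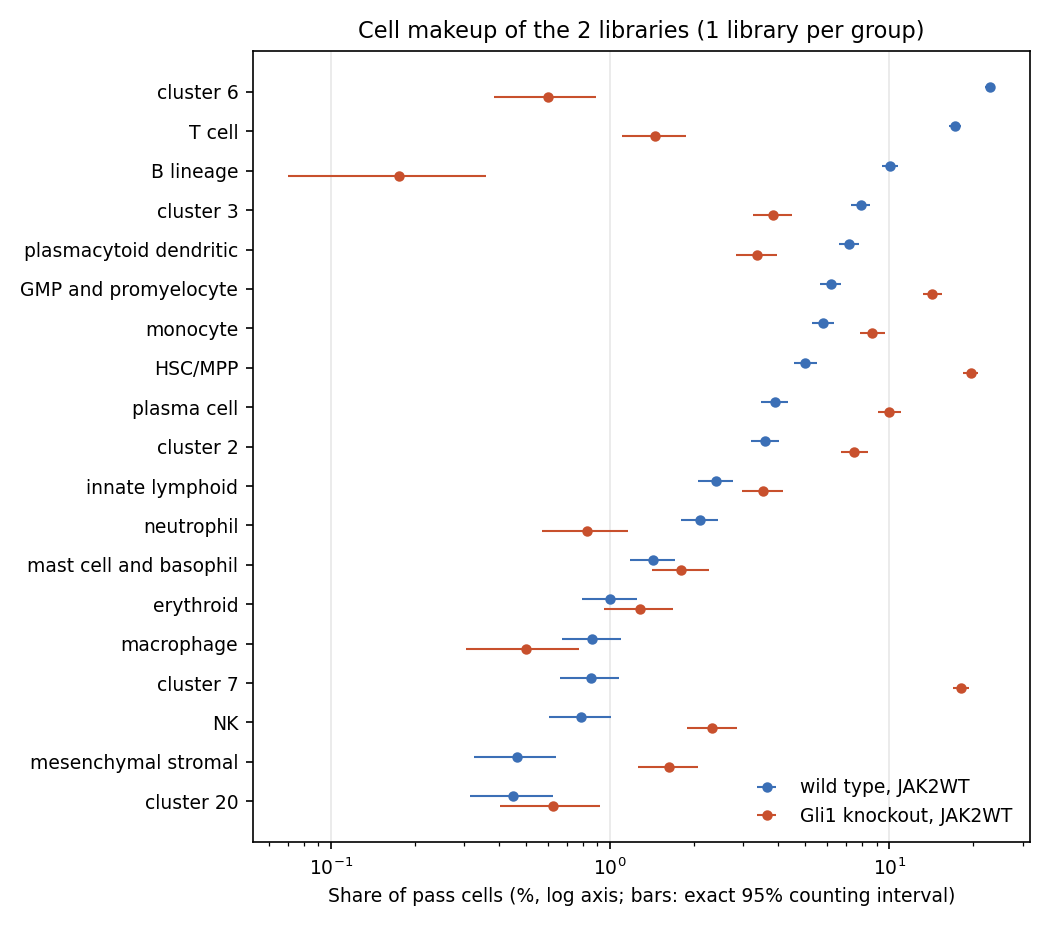
Share of passing cells in each class or unnamed cluster (x axis, percent on a log axis) for the wild-type library (blue) and the Gli1 knockout library (orange), with exact 95% counting intervals as bars. HSC/MPP-like cells are at 5.01% in wild type and 19.6% in knockout, and T cell-like cells at 17.2% and 1.45%.

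Because the cells differed, the genotypes were compared gene by gene within classes. Weighted levels were formed by giving each of the 6 classes with at least 100 cells in both libraries the same weight in both genotypes (HSC/MPP-like 24.7%, GMP-like 22.1%, monocyte-like 16.8%, plasma cell-like 14.8%, plasmacytoid-like 14.6%, innate lymphoid-like 6.90%). A gene was called when its level plus 10 CPM differed by at least 1.5-fold. Of 7722 autosomal genes at 10 CPM or more in either library, 76 were called higher in the knockout (0.984%) and 123 lower (1.59%). The median log2 ratio over these genes was 0.01. Summed over all passing cells without the weights, 126 of 7831 genes were higher (1.61%) and 376 lower (4.8%), and the median was -0.06. In those sums the lowest genes included the B lineage genes Vpreb3 (148 to 5.31 CPM) and Ebf1 (169 to 7.64 CPM) and the T cell gene Cd3g (118 to 5.08 CPM). Values below are the weighted levels unless a class is named. Predicted genes, immunoglobulin and T cell receptor genes, and mitochondrial, ribosomal protein and globin genes were not eligible for the highest and lowest named genes. Among those left out, Ighg2c had a log2 ratio of 4.21, the predicted gene Gm10260 had 3.65 (1.79 and 138 CPM), Gm11361 had 2.79 (2.77 and 78.4 CPM) and Ighg3 had 2.64, while Igha had -2.47.

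**Figure D2:**
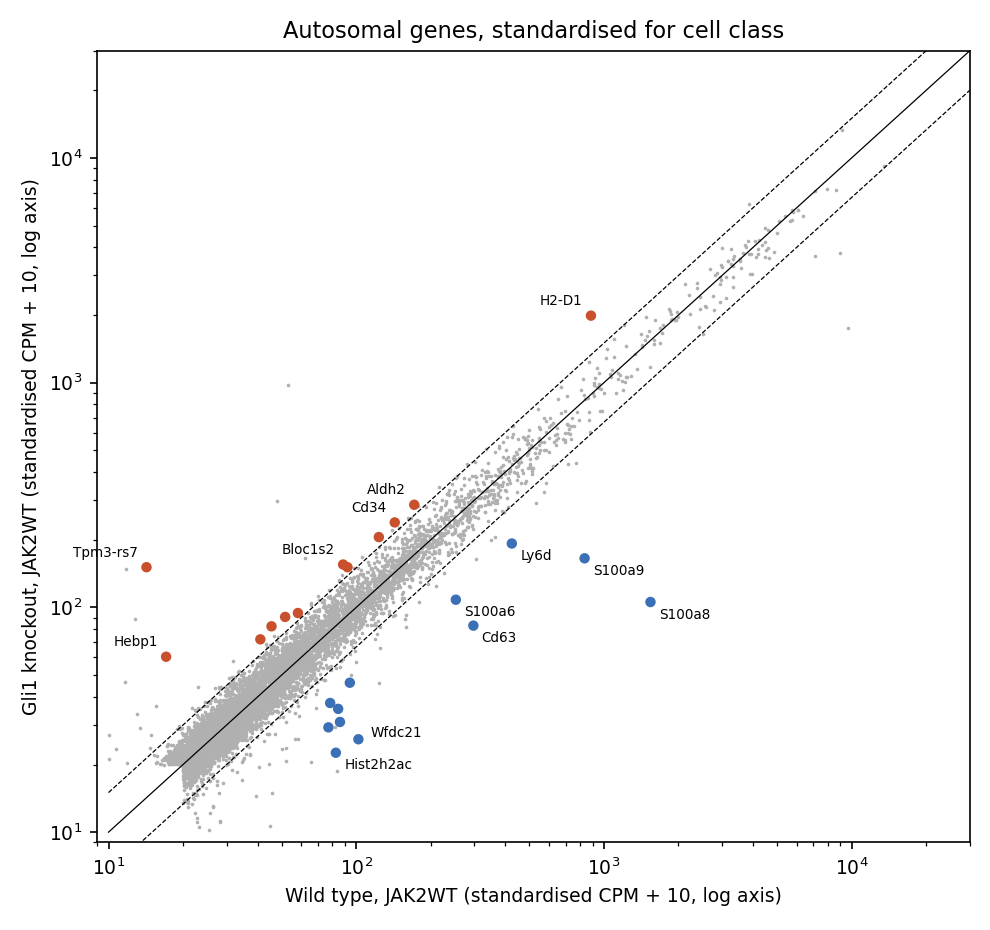
Weighted level plus 10 CPM of each tested autosomal gene in wild type (x, log axis) and Gli1 knockout (y, log axis), with the line of equality solid and 1.5-fold dashed. The 12 highest named genes are orange and the 12 lowest blue, and S100a8, at 1532 and 95.7 CPM, lies farthest below the dashed lines among them.

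The lowest genes in the knockout were led by neutrophil products. S100a8, a subunit of the alarmin calprotectin (chr3:90668978-90670035, mm10), was at 1532 CPM in the wild type (interval 1519 to 1545) and 95.7 CPM in the knockout (92.8 to 98.8), a log2 ratio of -3.87. Its partner subunit S100a9 (chr3:90692632-90695721) was at 826 CPM (816 to 836) and 155 CPM (152 to 159), a log2 ratio of -2.34. Wfdc21, a WAP domain gene (chr11:83746940-83752642), was at 92.1 and 15.9 CPM (-1.98). All 3 were lower in each of the 6 classes, and their intervals did not overlap. For S100a9 the ratio passed 1.5-fold in GMP-like and plasma cell-like cells and lay between -0.50 and -0.23 on the log2 scale in the other classes.

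In GMP-like cells S100a8 was at 5303 CPM in the wild type and 132 CPM in the knockout, and S100a9 at 2184 and 252 CPM. The GMP-like class joins cluster 8, which holds 88.4% of its wild-type and 65.8% of its knockout cells, and cluster 19. Within cluster 8 alone S100a8 was at 6168 and 189 CPM, a log2 ratio of -4.96 beside -5.23 in the class. In cluster 19 it was at 110 and 28.3 CPM. In plasma cell-like cells, which do not make calprotectin, S100a8 was at 1700 and 262 CPM.

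Neutrophil transcripts were also present in cells of other lineages. In mesenchymal stromal-like cells, S100a8 was at 275 CPM in the wild type and 95.2 CPM in the knockout. HSC/MPP-like cells (115 and 36.9 CPM), monocyte-like cells (138 and 26.0 CPM) and plasmacytoid-like cells (165 and 37.6 CPM) were below those stromal levels in both libraries. Median UMIs were 3564 and 5485 in stromal-like cells, 6585 and 16387 in plasmacytoid-like cells, and 20479 and 31141.5 in monocyte-like cells. How much of each level is free RNA was not tested. Summed over 10 neutrophil markers, the 6 classes ranged from 242 to 7687 CPM in the wild type and from 112 to 851 CPM in the knockout. The wild-type library also held more neutrophil-like cells, and the part of free RNA in these differences was not tested.

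Among the other genes at the bottom were markers of plasmacytoid cells. Siglech, a lectin receptor of plasmacytoid dendritic cells (chr7:55768178-55778925), was at 76.0 and 20.9 CPM (log2 ratio -1.48). Ly6d, a surface protein of early B cells and plasmacytoid cells (chr15:74762056-74763620), was at 415 and 183 CPM (-1.14). Both came mostly from the plasmacytoid-like class, and without it Siglech had a log2 ratio of -0.22 and Ly6d -0.23, short of a call. Ccnd1, which encodes cyclin D1 (chr7:144929931-144939925), was at 74.6 and 25.4 CPM (-1.26) and was lower in all 6 classes, with 332 and 104 CPM in the plasmacytoid-like class and 62.5 and 19.9 CPM in HSC/MPP-like cells.

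Cd63, a tetraspanin of lysosomes and granules (chr10:128900989-128912822), was at 287 CPM (281 to 293) and 73.0 CPM (70.9 to 75.3), a log2 ratio of -1.84. It was at 866 and 180 CPM in GMP-like cells, 277 and 100 CPM in HSC/MPP-like cells, and 1688 and 913 CPM in mast cell and basophil-like cells, but at 622 and 704 CPM in stromal-like cells, which in the knockout library are mostly recipient cells. S100a6, a calcium-binding protein (chr3:90612882-90624181), was at 243 and 98.2 CPM (-1.22). Lgals3, encoding galectin-3 (chr14:47367751-47386160), was at 68.5 and 27.6 CPM (-1.06), mostly in monocyte-like cells (249 and 67.8 CPM), and its log2 ratio was -0.51 without that class. Ahnak, a large scaffold protein gene (chr19:8989284-9076914), was at 84.2 and 36.2 CPM (-1.03), and at -0.48 when the 2 libraries were clustered alone. The plasmacytoid-like class was not weighted in that setting.

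Ccl5, a chemokine of T and NK cells (chr11:83525778-83530518), was at 67.2 CPM (62.6 to 72.2) and 19.3 CPM (16.9 to 21.9), a log2 ratio of -1.40. In HSC/MPP-like cells it was at 91.3 and 4.41 CPM. There the wild-type UMIs lay mostly in cluster 9 (390 UMIs, 212 CPM, against 12 and 19 UMIs in clusters 15 and 16), and the knockout had 3.40 CPM in that cluster. In the T cell-like class the order was the opposite, 898 and 9244 CPM, as described below. Hist2h2ac, a replication-dependent H2A histone gene (chr3:96220361-96220880), was at 72.8 and 12.6 CPM (-1.87) and was lower in all 12 classes and clusters examined singly, with 88.0 and 11.9 CPM in stromal-like cells too.

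Among the genes with the highest ratios, Tpm3-rs7 and H2-D1 were higher in all 12 classes and clusters examined singly. Tpm3-rs7, a processed copy of the tropomyosin gene Tpm3 (chr14:113314608-113316754), was at 4.23 CPM (3.45 to 5.26) in the wild type and 141 CPM (137 to 145) in the knockout, a log2 ratio of 3.41. In HSC/MPP-like cells it was at 5.42 and 145 CPM, and in monocyte-like cells at 5.25 and 183 CPM. Its sequence is nearly that of Tpm3, so how reads were divided between them is uncertain, and Tpm3 had a log2 ratio of -0.42. In stromal-like cells Tpm3-rs7 was at 0 UMIs in the wild type, with an upper bound of 20.3 CPM, and at 33.3 CPM in the knockout.

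Hebp1, encoding a heme-binding protein (chr6:135137522-135198022), was at 7.08 CPM (6.14 to 8.24) and 50.3 CPM (48.0 to 52.9), a log2 ratio of 1.82. In GMP-like cells it was at 14.2 and 108 CPM and in innate lymphoid-like cells at 1.79 and 128 CPM, where cluster 12 carried it (0 UMIs in the wild type and 327 CPM in the knockout). Erythroid-like cells, in which heme is made in bulk, were at 194 and 233 CPM. H2-D1, a classical MHC class I heavy chain (chr17:35262730-35267499), was at 877 CPM (864 to 890) and 1978 CPM (1962 to 1995), a log2 ratio of 1.17. It was at 816 and 2064 CPM in HSC/MPP-like cells, at 2191 and 6291 CPM in NK-like cells, and at 1744 and 3017 CPM in stromal-like cells. MHC class I genes are near-identical and vary between strains, so reads assigned to H2-D1 are uncertain.

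The other highest named genes had log2 ratios between 0.70 and 0.86. They included 2 mitochondrial enzymes, Acads, a short-chain acyl-CoA dehydrogenase (35.5 and 72.4 CPM), and Aldh2, an aldehyde dehydrogenase (162 and 276 CPM). Alas1, the first enzyme of heme synthesis outside red cells (chr9:106233455-106248654), was at 113 and 196 CPM, with 320 and 544 CPM in GMP-like cells. Cdc20, which activates the anaphase-promoting complex, was at 31.0 and 62.1 CPM. Bloc1s2, a subunit of a complex for lysosome-related organelles (chr19:44139246-44146446), was at 78.6 and 145 CPM. Tespa1, an adaptor of antigen receptor signalling, was at 41.7 and 80.7 CPM, Dazap1, an RNA-binding protein, at 82.2 and 141 CPM, and Ptov1 at 48.2 and 84.4 CPM.

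Cd34, the sialomucin that marks haematopoietic progenitors (chr1:194938819-194961279), was at 133 CPM (129 to 138) and 229 CPM (224 to 234), a log2 ratio of 0.74. It was higher in 5 of the 6 classes: 308 and 443 CPM in HSC/MPP-like cells, 78.4 and 177 CPM in GMP-like cells, 115 and 218 CPM in monocyte-like cells, 102 and 245 CPM in plasmacytoid-like cells, and 46.6 and 85.6 CPM in innate lymphoid-like cells. Plasma cell-like cells were at 15.5 and 13.3 CPM. Within the GMP-like class Cd34 was at 49.0 and 99.4 CPM in cluster 8 and at 255 and 316 CPM in cluster 19, whose share of the class was 11.6% in the wild type and 34.2% in the knockout. With the 2 libraries clustered alone, the log2 ratio was 0.52, short of a call. That setting weighted 5 classes, without the plasmacytoid-like class.

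**Figure D3:**
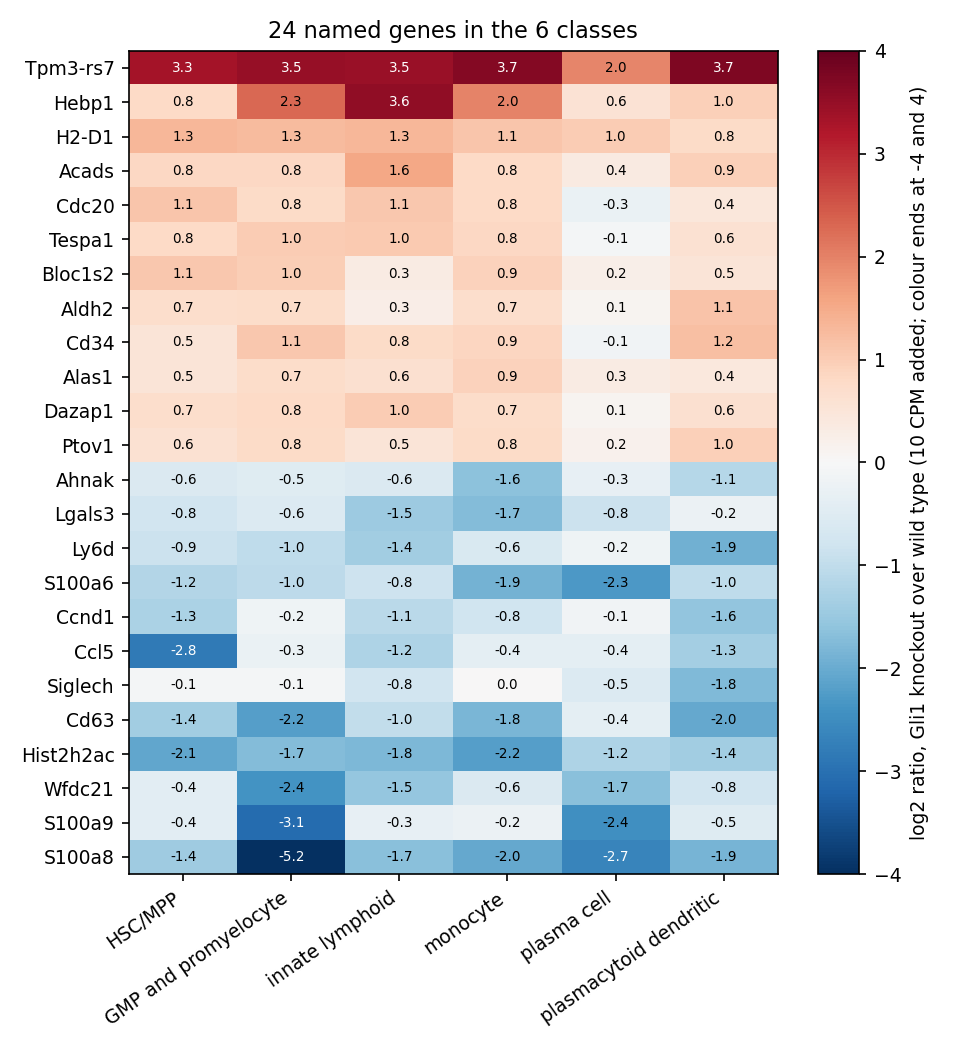
Log2 ratio of Gli1 knockout over wild type (10 CPM added) for the 12 highest and 12 lowest named genes (rows) in the 6 weighted classes (columns), with red higher and blue lower in the knockout and colours ending at 4 and -4. Tpm3-rs7 and H2-D1 are higher and Hist2h2ac and S100a8 lower in all 6 columns, whereas Siglech stands out in the plasmacytoid column, where it is at 510 and 142 CPM.

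Within HSC/MPP-like cells, 155 of 7954 genes were higher in the knockout (1.95%) and 74 lower (0.93%), with a median log2 ratio of 0.03. The gene with the lowest ratio among those at 100 CPM was Pf4, platelet factor 4 of the megakaryocyte lineage, at 292 CPM (277 to 308) in the wild type and 32.6 CPM (29.8 to 35.6) in the knockout (log2 ratio -2.83). It was at 683 and 15.3 CPM in cluster 15, at 303 and 85.9 CPM in cluster 16 and at 1.63 and 2 CPM in cluster 9. Stromal-like cells had 0 Pf4 UMIs in both libraries. Summed over 8 megakaryocyte markers, HSC/MPP-like cells had 355 CPM in the wild type and 79.8 CPM in the knockout, and the part of platelet transcripts in other differences was not tested.

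Some stem cell regulators were lower in that class. Hlf, a transcription factor of the most primitive cells, was at 162 and 83.1 CPM (log2 ratio -0.89), and Mecom, another, was at 41.9 and 24.5 CPM (-0.59). Mllt3, a maintenance factor of stem cells, had a log2 ratio of -0.64. Meis1 was at 142 and 124 CPM, Kit, the receptor for stem cell factor, at 183 and 130 CPM, and Hoxa9 at 73.8 and 74.0 CPM. Of 19 stem cell regulators measured in HSC/MPP-like cells, these 3 were called lower and 0 higher, beside 0.93% and 1.95% of all genes there. The median of the 19 was -0.18. Over the weighted classes, 16 were measured, with Cd34 called higher and Hlf lower, and a median of -0.12. In the unweighted sums the log2 ratio of Hlf was 0.12.

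In GMP-like cells, 233 of 7348 genes were higher (3.17%) and 107 lower (1.46%), with a median of 0.08. Their defining primary granule genes were not called: Elane, neutrophil elastase, was at 15810 and 11190 CPM (log2 ratio -0.50), Mpo, myeloperoxidase, at 7700 and 7366 CPM, and Ctsg, cathepsin G, at 4304 and 4816 CPM. Of 31 genes of G2 and M phase, 7 were higher and 0 lower, with a median of 0.47. Cluster 19, led by genes such as Hist1h1b, Hist1h2ap and Aurkb, held 11.6% of the wild-type and 34.2% of the knockout cells of this class. Its part in that median was not tested. The highest genes after Tpm3-rs7 and Hebp1 included Ifitm1, a membrane protein of the interferon-induced transmembrane family, at 34.1 and 112 CPM (1.46). In monocyte-like cells, 101 of 7388 genes were higher (1.37%) and 108 lower (1.46%). There Ly6c2, the surface marker of classical monocytes, was at 1863 and 1202 CPM (-0.63), Klf4 at 75.7 and 42.3 CPM, and S100a6 at 368 and 92.8 CPM (-1.88), while Ifitm1 was at 42.7 and 106 CPM (1.14).

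Plasmacytoid-like cells differed in the genes that define them. Of 8038 genes, 278 were higher (3.46%) and 458 lower (5.7%). Ccr9, a homing receptor, was at 123 and 22.8 CPM, Tcf4, the factor that specifies these cells, at 932 and 415 CPM, and Bst2 at 1730 and 856 CPM. Lyl1, a progenitor transcription factor, was at 45.7 and 113 CPM (log2 ratio 1.14), and Cd34 was higher as given above. A related unnamed cluster, cluster 2 (led by Cox6a2, Irf8 and Dntt), was 3.59% of wild-type and 7.5% of knockout cells. In it 1.61% of 7618 genes were higher and 2.72% lower, and Ly6d was at 1551 and 24 CPM and Siglech at 106 and 6.95 CPM.

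Plasma cell-like cells differed in their immunoglobulin classes. Igha, the constant chain of IgA, was at 63870 CPM in the wild type and 11430 CPM in the knockout, whereas Ighg2c was at 282 and 6427 CPM and Ighg3 at 254 and 1908 CPM. Ighm, of IgM, was at 59670 and 87160 CPM. The 13 listed genes of immunoglobulin constant chains and the J chain together took 546700 and 652900 CPM of this class. Its median log2 ratio was -0.25, with 44 of 5102 genes called higher (0.862%) and 497 lower (9.74%) before that shift is taken into account. Outside the immunoglobulins Retnlg, a neutrophil gene, was at 220 and 0.580 CPM, and Chst1, a sulfotransferase, at 61.4 and 126 CPM. Igha transcripts in other cells followed those of the plasma cells, with 270 and 90.4 CPM in stromal-like cells.

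In the lymphoid classes, which hold few cells, many genes crossed 1.5-fold. Of T cell-like cells the knockout had 58, and 16.7% of 8532 genes were higher and 19.5% lower. Different clusters held this class, cluster 10 with 634 wild-type and 2 knockout cells and cluster 14 with 739 and 56. Marcks and Myl10 (260 and 173 CPM in the wild type, 0 UMIs in the knockout, with an upper bound of 12.7 CPM) were at 390 and 272 CPM in the wild-type cells of cluster 10, where Ly6d was at 1295 CPM. Within cluster 14 the chemokine genes Ccl5 (2348 and 9420 CPM), Ccl4 (57.9 and 798 CPM) and Ccl3 (25.9 and 306 CPM) were higher in the knockout, and the protease gene Gzma was lower (242 and 94.9 CPM). Of the knockout T cell-like cells, 9 of 58 (15.5%) had an Xist UMI.

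NK-like cells, 63 and 93 cells, had 19.6% of 8551 genes higher and 13.6% lower. Gzma was at 921 CPM (811 to 1042) and 36.1 CPM (21.4 to 57.0), Klrb1b, a receptor gene, at 178 and 12 CPM, and Klre1 at 306 and 108 CPM, while Ncr1, the activating receptor NKp46, was at 499 and 1211 CPM. Genes of MHC class II (H2-Aa, 106 and 477 CPM) were among the highest in this class, and 30 of 31 genes of G2 and M phase were lower, with a median log2 ratio of -1.64. In innate lymphoid-like cells, with 11.1% of 8515 genes higher and 10.5% lower, H2-Aa was at 371 and 1505 CPM, through cluster 12 (662 and 4035 CPM), while cluster 0 was at 134 and 118 CPM. There Rora, needed for these cells, was at 818 and 340 CPM and Cd3d, of the T cell receptor complex, at 104 and 12.4 CPM. In stromal-like cells Cd3d was at 27.5 CPM in the wild type and 0 UMIs in the knockout. Summed over 11 T cell markers, the 6 weighted classes ranged from 31.9 to 1053 CPM in the wild type and 2.44 to 702 CPM in the knockout. The part of free RNA in the Cd3d difference was not tested. The innate lymphoid-like class held 191 and 141 cells.

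Basophil and red cell genes could be read in small classes. In mast cell and basophil-like cells, 8.31% of 8002 genes were higher and 5.1% lower, among them the proteases Mcpt8 (4640 and 2744 CPM) and Prss34 (7920 and 5083 CPM). Ifitm1 was at 939 and 2824 CPM, Gzmb at 89.5 and 305 CPM and the protease inhibitor gene Slpi at 237 and 28.5 CPM. In erythroid-like cells, 5.82% of 7423 genes were higher and 5.47% lower. The globin genes Hbb-bt (1801 and 937 CPM) and Hba-a1 (2739 and 1502 CPM) were lower, while Car1, an early carbonic anhydrase, was at 2034 and 2782 CPM and Klf1, the erythroid master regulator, at 194 and 255 CPM. In cluster 3, 2.03% of 7736 genes were higher and 2.08% lower, and the osteoclast-type protease gene Ctsk was at 0.176 CPM (1 wild-type UMI, interval up to 0.978) and 108 CPM (95.8 to 121), with Acp5 at 9.83 and 130 CPM.

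Gene lists were read by counting called members against the 0.984% of all genes called higher and 1.59% called lower. The list of alarmins and secondary granule genes stood lowest: 12 of its 19 measured genes were lower and 0 higher, with a median log2 ratio of -0.87. Besides S100a8 and S100a9, Ngp was at 72.3 and 19.3 CPM, Camp, cathelicidin, at 114 and 36.2 CPM, and Lyz2 at 295 and 155 CPM, whereas S100a10 was at 385 and 396 CPM. The list's median was -0.63 in GMP-like and -1.68 in plasma cell-like cells but 0.60 in T cell-like cells. Primary granule genes, made earlier in the same lineage, had 0 of 14 genes called and a median of -0.02.

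Among 28 listed profibrotic ligands and matrix factors, 6 were measured, of which Pf4, Ccl5 and Lgals3 were lower and 0 higher (median -0.79). Vegfa was at 13.9 and 6.63 CPM and Grn at 116 and 88.9 CPM, while Tgfb1, which encodes the main fibrogenic growth factor, was at 169 and 221 CPM (log2 ratio 0.36). Of the TGF-beta response list, 0 of 10 were called (median -0.08). Of 10 megakaryocyte and platelet genes, Pf4 was lower and 0 higher, with Itga2b at 12.9 and 10.7 CPM (median -0.17).

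The JAK-STAT, GLI regulator and MIF lists had few called genes. Of 10 JAK kinases and STAT factors, 0 were called (median -0.04). Jak2 was at 34.7 CPM (32.1 to 37.6) and 23.9 CPM (21.8 to 26.1), a log2 ratio of -0.40, and Stat5b at 33.5 and 23.1 CPM (-0.40), whereas Stat3 was at 44.5 and 44.7 CPM. The Jak2 values count mouse gene models, and the labels do not say from which species the virus JAK2 came. Of 13 JAK-STAT target genes, Myc was higher (74.9 and 121 CPM, log2 ratio 0.62) and Ccnd1 lower, with Pim1 at 162 and 184 CPM (median 0.01). Of 14 casein kinase 2 genes and reported non-canonical GLI regulators, 0 were called (median -0.04), with Csnk2a1 at 65.6 and 59.1 CPM. Of 6 genes of the axis of the cytokine MIF, 0 were called (median -0.18): Mif was at 700 and 644 CPM (-0.12) and its receptor gene Cd74 at 702 and 860 CPM (0.29). Cd74 was lower in 4 of the 6 classes and higher in plasma cell-like (3104 and 3776 CPM) and innate lymphoid-like cells (1017 and 3196 CPM).

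Proliferation and metabolism lists shifted by small amounts. G2 and M phase genes had a median of 0.26 with 1 of 31 called higher, Cdc20, and 0 lower. The median was 0.39 in HSC/MPP-like cells, 0.14 when weighted by cluster in place of class, and -0.04 in the unweighted sums. S phase genes had 0 of 31 called and a median of 0.11. The median for glycolysis and hypoxia was 0.22, with Pkm, pyruvate kinase (269 and 427 CPM, log2 ratio 0.65), and Ldha, lactate dehydrogenase (325 and 497 CPM, 0.60), called higher of 18 and 0 lower. Nuclear genes of oxidative phosphorylation had 0 of 36 called and a median of -0.23, with Atp5e at 974 and 739 CPM. Ribosomal protein genes had 0 of 76 called and a median of -0.05, and MYC and ribosome biogenesis genes had Myc higher of 28 and a median of 0.15. Clustered histone genes had 2 of 17 lower, Hist2h2ac and Hist1h3c (76.0 and 44.3 CPM), and a median of -0.27.

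Antigen presentation and stress lists had called genes in both directions or few. Of 15 MHC class I genes, H2-D1 was called, while H2-K1, another classical heavy chain gene, was at 945 and 1096 CPM and B2m at 1719 and 1804 CPM (median 0.11). Of 10 MHC class II genes, H2-Aa (95.8 and 159 CPM) and H2-DMb2 (4.70 and 13.6 CPM) were higher, with a median of 0.21. Without innate lymphoid-like cells the median was -0.13 and H2-Aa had a log2 ratio of -0.31, and in the unweighted sums the median was -0.47, with H2-Aa at -1.26 and H2-DMb2 at -0.39. H2-Aa was also negative in 3 other clusterings or weightings. Of 20 interferon response genes, Ifitm1 (116 and 192 CPM) and Gbp3 (23.5 and 42.3 CPM) were higher and Ifi27l2a lower (109 and 62.5 CPM), with a median of -0.02. Of 24 immediate early and dissociation stress genes, Fosb (352 and 195 CPM), Klf6 (89.7 and 47.1 CPM) and Egr1 (64.6 and 37.7 CPM) were lower and Hspa1a (13.1 and 34.2 CPM) and Dusp2 (33.6 and 56.8 CPM) higher (median -0.02). Of 9 NF-kB targets, Tnfaip3 (18.9 and 6.53 CPM) and Nfkbiz (27.3 and 12.2 CPM) were lower and 0 higher (median -0.12).

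**Figure D4:**
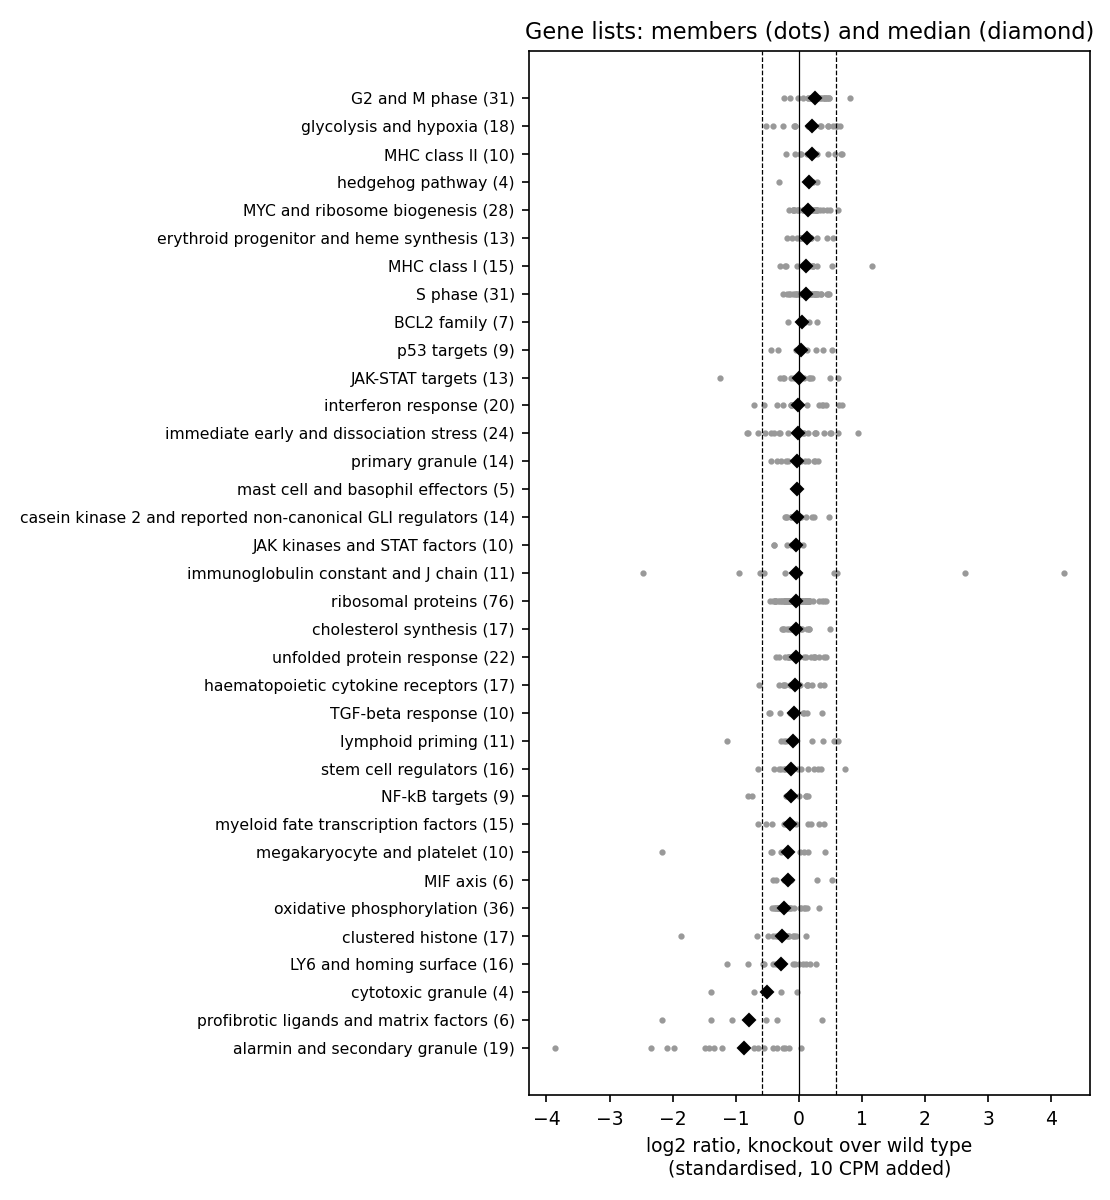
Log2 ratio of Gli1 knockout over wild type for the measured members of each gene list (grey dots, number measured in brackets) and their median (diamonds), with dashed lines at 1.5-fold. The alarmin and secondary granule list has its median at -0.87, and the hedgehog, casein kinase 2 and JAK and STAT lists have no member past a dashed line.

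Genes near the deleted locus were also counted. Gli1 lies at chr10:127329882-127341974 on the minus strand (mm10). Of 70 tested genes within 10 Mb, 3 were called (4.29%), beside 2.58% of all tested genes. They were Atp23, a mitochondrial protease gene 0.462 Mb below Gli1 in coordinate (18.4 and 34.1 CPM, log2 ratio 0.63), Cd63, 1.57 Mb above it, and Tespa1, 2.99 Mb above it. In the JAK2V617F pair of libraries described below, 1 of 67 was called (1.49%), beside 2.43% of all genes. Over the 4 classes used there, 3 of 72 were called with JAK2WT (4.17%, beside 2.54%) and 1 of 69 with JAK2V617F (1.45%, beside 0.808%). Over chromosomes, the called share with JAK2WT ran from 0.428% on chromosome 4 to 5.26% on chromosome 6 and was 3.55% on chromosome 10.

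The same genotype comparison exists in the series with JAK2V617F, in a pair of libraries that shares no library with the JAK2WT pair but shares the donor genotypes and the difference in sex. Both pairs were read over the 4 classes that had 100 cells in all 4 libraries (HSC/MPP-like, GMP-like, innate lymphoid-like and monocyte-like). On this basis 117 of 7821 genes were higher (1.5%) and 82 lower (1.05%) with JAK2WT, and 28 of 7553 were higher (0.371%) and 33 lower (0.437%) with JAK2V617F. Of 7428 genes tested in both pairs, 47.2% had a higher level in the knockout with JAK2V617F. Among the 114 of these called higher with JAK2WT that share was 64.9%, and among the 66 called lower 27.3%.

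Of these genes, 16 were called higher in both pairs, out of 114 called higher with JAK2WT and 27 with JAK2V617F, and 13 lower in both, out of 66 and 25. None were called higher with JAK2WT and lower with JAK2V617F, and 4 the other way: S100a9, Igha, Iglc1 (-0.63 and 1.48) and the eosinophil granule gene Prg2 (-0.94 and 1.18), named here after their values were seen. Tpm3-rs7 had log2 ratios of 3.48 with JAK2WT and 3.38 with JAK2V617F, Hebp1 of 2.02 and 2.01, Bloc1s2 of 0.95 and 0.79, and H2-D1 of 1.26 and 0.74. Hist2h2ac had -1.98 and -1.93. Cd63 had -1.90 and -0.73, Ccl5 -1.48 and -0.97, Wfdc21 -2.09 and -0.76, Tspan32, a tetraspanin gene, -0.93 and -1.17, Fosb -0.92 and -0.69, and Klf6 -0.80 and -0.61. Near Gli1, Cd63 passed 1.5-fold in both pairs, Atp23 had 0.65 and 0.33, and Tespa1 0.90 and -0.01.

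The calprotectin genes differed between the pairs. S100a9 had a log2 ratio of -2.40 with JAK2WT (760 and 135 CPM) and 1.02 with JAK2V617F (91.8 and 197 CPM), and S100a8 had -4.43 and -0.32. Cd34 had 0.69 and 0.43, Alas1 0.77 and 0.02, Acads 0.87 and -0.03, Cdc20 0.93 and -0.02, Pkm 0.63 and -0.13, and Myc 0.61 and 0.07. Hlf had -0.68 and 0.29 and Pf4 -2.33 and -0.20. In cell shares, the knockout over wild-type ratio with JAK2V617F was 2.27 for HSC/MPP-like cells and 0.719 for GMP-like cells, beside 3.90 and 2.31 with JAK2WT. Its direction also reversed for T cell-like cells at 2.01 (0.0844 with JAK2WT), B lineage-like at 4.04 (0.0173), macrophage-like at 1.48 (0.579) and cluster 3 at 2.41 (0.484). Plasma cell-like cells were at 0.992 (2.57). The JAK2V617F libraries held 21 and 76 T cell-like, 7 and 51 B lineage-like and 3 and 8 macrophage-like cells. Innate lymphoid-like cells at 1.88 (1.47), monocyte-like at 1.59 (1.5) and neutrophil-like at 0.75 (0.392) kept their direction. With 1 library in each of the 4 groups, none of these differences between the pairs could be tested.

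**Figure D5:**
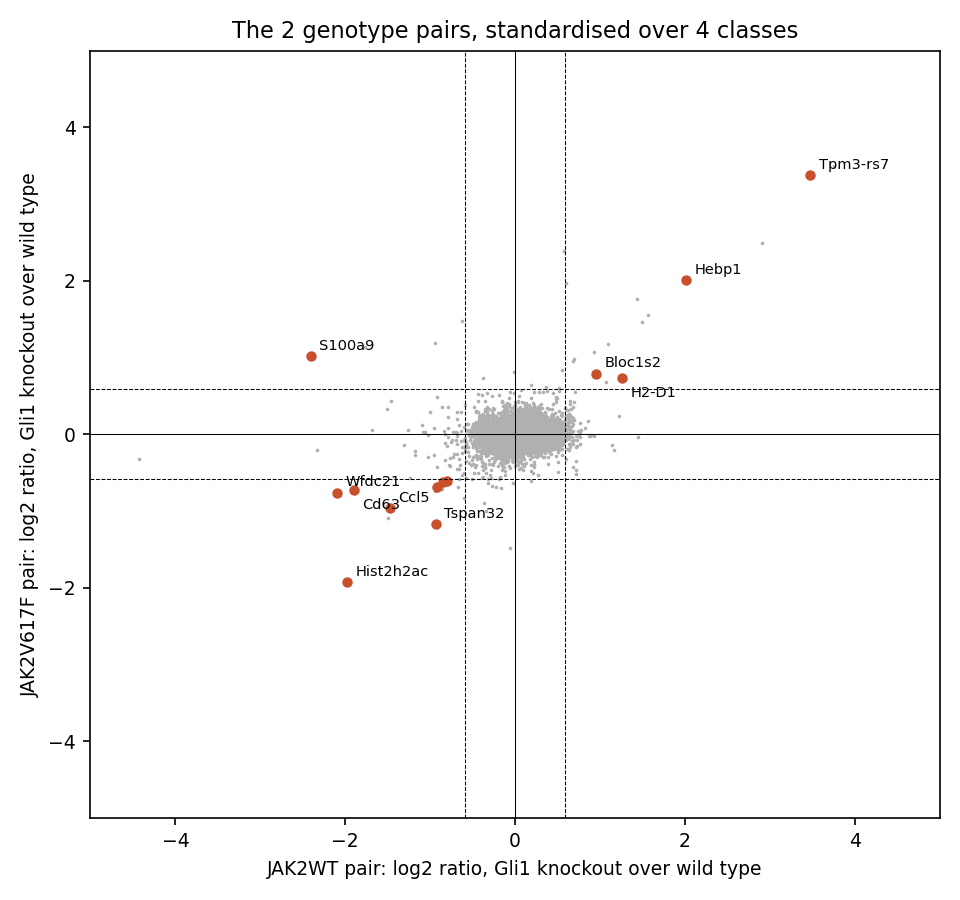
Log2 ratio of Gli1 knockout over wild type in the JAK2WT pair (x axis) and in the JAK2V617F pair (y axis) for genes tested in both, over 4 classes, with dashed lines at 1.5-fold and orange points for named genes called in both. Tpm3-rs7 lies at 3.48 and 3.38 and Hist2h2ac at -1.98 and -1.93, while S100a9 lies at -2.40 and 1.02.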

How the data were processed

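Single-cell transcripts were measured with droplet 3' chemistry in 1 library per condition, each of 3 pooled mice, and p-values could not be computed. The authors deposited count matrices (unnormalised UMIs of each gene in each barcode), made with Cell Ranger 4.0.0 and handled with Seurat 4.0.4 on mm10, per the submitters' processing notes. The hashtag libraries were not analysed here, so mice could not be separated. Of 31054 features, 31011 matched the gene annotation and 29100 were autosomal and used.

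Cells of the 4 libraries that passed the filters were clustered together without batch correction and without X and Y genes and GFP (scanpy 1.11.5, 2000 variable genes, 30 components, 15 neighbours, Leiden resolution 1.0), giving 30 clusters. A cluster was named when at least 3 markers of a type reached 50 CPM and that type led by a margin. The limits of this rule were chosen with the clusters in view and left 7 clusters unnamed, and rebuilt names may differ from the authors' names. Doublet candidates (791 wild-type and 229 knockout cells, at 0.8% per 1000 barcodes) were kept, and left out as an alternative. Free RNA was not subtracted.

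Within a library and class, UMIs were added up and scaled to CPM, with exact Poisson intervals, exact Clopper-Pearson intervals for shares and gamma intervals for weighted levels, all covering counting error only. Log2 ratios are on the log2(CPM + 10) scale, which understates low genes, and genes at 10 CPM or more in either library were tested for a 1.5-fold ratio. Named genes were the 12 highest and 12 lowest weighted ratios at 50 CPM or more whose sign held in 75% or more of the classes, 3 highest and 3 lowest per class at 100 CPM, 8 and 8 of the sums, 2 and 2 of each list, markers of the classes, Gli1, Jak2, Mif, Cd74, GFP and called genes within 10 Mb of Gli1. Outside the lists, mitochondrial, ribosomal protein, predicted, globin, immunoglobulin, T cell receptor and sex-linked genes were not eligible. The members and the 36 gene lists were chosen with earlier results of these data known. The calling and interval steps were checked on simulated counts. Alternatives changed the added CPM, the filters, the classes, the clustering, the depth and the cells used.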

Additional observations from a re-analysis of the deposited data

Results flagged for a closer look

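Over the 4 classes measured in all libraries, 2 named genes were at least 2-fold lower in the knockout with JAK2WT and at least 2-fold higher with JAK2V617F. S100a9, a subunit of calprotectin, had log2 ratios of -2.404 and 1.021. Igha, the constant chain of IgA, had log2 ratios of -1.769 and 1.139, in classes that hold no plasma cells. Each group is 1 library, so the difference between the pairs was not tested.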

How the results depend on the processing

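No paired analysis was possible because each genotype is 1 library without a replicate number, and for the same reason no replicate was left out. The comparison among cells with a GFP UMI alone was not run, since 45 and 7 cells had one. With the 2 libraries clustered alone, weighted levels used 5 classes, without the plasmacytoid-like class. Depth limited genes under 10 CPM and classes of few cells, and the cause of each change below was not tested.

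The counts of 76 genes higher and 123 lower became 240 and 278 with 1 CPM added, 15 and 37 with 50 CPM added, 46 and 57 with a 50 CPM filter, 196 and 324 with cells thinned to 1000 UMIs, and 126 and 376 in the unweighted sums. Over the 4 shared classes 117 were higher.

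Of list medians, G2 and M phase (0.26) was 0.15 with 50 CPM added, 0.19 without HSC/MPP-like cells, 0.15 thinned, -0.0353 in the sums, 0.0576 at Leiden resolution 0.5 and 0.14 weighted by cluster. Clustered histones (-0.27) were at -0.13 with 50 CPM added, -0.37 without GMP-like cells, -0.39 in the sums and -0.38 at resolution 0.5. MHC class II (0.21) was at -0.13 without innate lymphoid-like cells, -0.47 in the sums, -0.0703 at resolution 0.5, -0.0766 with the libraries clustered alone, 0.72 over 4 classes and -0.12 by cluster. Mast cell and basophil effectors (-0.02) were at -0.13 without HSC/MPP-like cells, -0.0070 without plasma cell-like cells, 1.154e-05 thinned, 0.0731 in the sums, 0.0109 at resolution 0.5, -0.0060 over 4 classes and 0.0114 by cluster. With the 50 CPM filter the erythroid and heme list (0.13) was at 0.45 and cytokine receptors (-0.05) at 0.14. Oxidative phosphorylation (-0.23) was at -0.19 with mitochondrial, globin and immunoglobulin genes out of the total and -0.30 in the sums. Stem cell regulators (-0.12) were at -0.32 thinned and 0.28 in the sums, and JAK and STAT factors (-0.04) at 0.0193 thinned. In the sums, lymphoid priming (-0.09) was at -0.77, cholesterol synthesis (-0.05) at -0.17 and S phase (0.11) at -0.0584.

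The sign of 4 single genes reversed. H2-Aa (0.67) was at -0.31 without innate lymphoid-like cells, -1.26 in the sums, -0.24 at resolution 0.5, -0.39 with the libraries clustered alone and -0.28 by cluster. In the sums, Hlf (-0.65) was at 0.12, Iglc1 (-0.95) at 0.0289 and H2-DMb2 (0.68) at -0.39.

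Share ratios also moved, and those of NK-like, erythroid-like, mast cell-like and plasmacytoid-like cells are values only, since their markers differed. Without doublet candidates the stromal ratio (3.51) was 2.12. With 1000 genes, 2500 UMIs and 5% mitochondrial UMIs required, they were 4.81 for NK-like cells (2.95), 1.75 for cluster 2 (2.09), 0.0584 for cluster 6 (0.0263), 0.604 for erythroid-like (1.27), 1.95 for GMP-like (2.31), 2.73 for innate lymphoid-like (1.47) and 1.14 for monocyte-like cells (1.5). At resolution 0.5 they were 3.42 for HSC/MPP-like (3.90), 1.85 for GMP-like, 1.73 for mast cell-like (1.26) and 2.23 for monocyte-like cells, and at 2.0 they were 3.18 for GMP-like and 1.96 for monocyte-like cells. With the 2 libraries clustered alone they were 0.813 for NK-like, 0.0167 for T cell-like (0.0844), 0.617 for erythroid-like, 1.86 for GMP-like, 1.16 for innate lymphoid-like, 0.504 for monocyte-like and 0.150 for plasmacytoid-like cells (0.467). With low-UMI clusters and all lymphoid, plasmacytoid and plasma cell-like cells left out they were 2.24 for HSC/MPP-like, 1.20 for cluster 2, 0.797 for cluster 20 (1.39), 0.278 for cluster 3 (0.484), 0.732 for erythroid-like, 1.33 for GMP-like, 0.333 for macrophage-like (0.579), 0.725 for mast cell-like, 2.02 for stromal, 0.864 for monocyte-like and 0.225 for neutrophil-like cells (0.392).

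Some settings changed no summary value by enough to be listed above. They were leaving out knockout cells with Xist, cells with a GFP UMI or the low-UMI clusters, weighting classes equally, and omitting the low filter. Without the low-UMI clusters the share ratio was 3.66 for HSC/MPP-like (3.90) and 2.17 for GMP-like cells (2.31). The settings for Xist and low-UMI clusters were chosen after seeing the data, as were the 4 classes and the weighting by cluster. Of 56 called named genes, 28 with 50 CPM added to 56 with 1 CPM added stayed called.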

Other observations

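Surface and fate genes of other lineages were also read over the 6 weighted classes, against 0.984% of all genes called higher and 1.59% lower. Of 16 LY6 family and homing genes, Ly6d and Ly6c2 (761 and 430 CPM) were lower and 0 higher, with a median log2 ratio of -0.28. Of 4 cytotoxic granule genes, Ccl5 and the NK receptor gene Klrd1 were lower and 0 higher (median -0.50), in classes that hold no T or NK cells. In T cell-like cells 12 of 14 were higher and 1 lower (median 2.23), beside 16.7% and 19.5% of all genes there. That class joins cluster 10, with 634 wild-type and 2 knockout cells, and cluster 14, with 739 and 56. The part of this makeup in the list's median was not tested. Within cluster 14 Ccl5 was higher in the knockout (2348 and 9420 CPM) and Gzma lower (242 and 94.9 CPM). In NK-like cells 5 were higher and 5 lower (beside 19.6% and 13.6%), with Klrd1 at 593 and 738 CPM. Of 11 lymphoid priming genes, Cd27, a receptor of the tumour necrosis factor family, was higher (60.6 and 98.0 CPM) and Ly6d lower (median -0.09). Of 15 myeloid fate transcription factors, Egr1 was lower and 0 higher (median -0.14). Of 17 cytokine receptors, Il1rl1, the receptor for interleukin-33, was lower and 0 higher (median -0.05). Of 11 immunoglobulin constant and J chain genes, Ighg2c, Ighg3 and Igkc were higher and Igha, Iglc1 and Iglc2 lower (median -0.04).

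Several lists had no called gene over the weighted classes. In the unfolded protein response list, which serves secretory cells, 0 of 22 genes were called (median -0.05), and in cholesterol synthesis 0 of 17 (median -0.05). Among p53 targets 0 of 9 were called (median 0.03), and in the BCL2 family of cell death regulators 0 of 7 (median 0.05). Erythroid and heme synthesis genes had 0 of 13 called (median 0.13), but in erythroid-like cells 5 of 25 were lower and 1 higher (median -0.09). Of all genes in erythroid-like cells, 5.47% were lower and 5.82% higher. Mast cell and basophil effectors had 0 of 5 called (median -0.02), but in mast cell and basophil-like cells 5 of 13 were lower and 1 higher (median -0.08). Of all genes in mast cell and basophil-like cells, 5.1% were lower and 8.31% higher. Of 7 haemoglobin genes, 0 reached 10 CPM in these classes.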
